A study of Mus musculus with 9 samples.

Results

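Interferon regulatory factors (IRFs) are transcription factors that share a DNA-binding domain and bind interferon-stimulated response elements in the promoters of immune genes. The rows of the deposited expression table for Irf1, Irf2, Irf3, Irf4, Irf5, Irf7, Irf8 and Irf9 were taken by symbol, which gave 8 of 14912 rows. All 8 passed the filter for low values and were tested together with every other row that passed, 10983 in all.

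The libraries came from CD4+ T cells of the mouse strain B6.Cg-Foxp3tm2(EGFP)Tch/J, hemizygous for Foxp3<tm2Tch>, an allele from which eGFP is made together with Foxp3, the factor that defines regulatory T cells. All 9 libraries carry this reporter allele, so no library is of unmodified cells. In the mTO-iTreg group (n = 3), eGFP-positive cells were taken on day 5 of culture beside murine colorectal cancer tumour organoids, with 20 U/ml IL-2 and 1 µg/ml each of anti-CD3 and anti-CD28, and no TGFβ is listed for that medium. In the TGFβ-iTreg group (n = 3), eGFP-positive cells were taken after the same number of days (day 5) in medium to which TGFβ (10 ng/ml), IL-2 (300 U/ml) and the same dose of both antibodies had been added. The day 0 group (n = 3) held eGFP-negative CD4+ T cells taken before any culture. Culture, time, sorting for eGFP and, between the induced groups, the IL-2 dose differ together with the group, and their parts in any difference cannot be told apart.

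In T cells the IRFs fall into several roles. IRF1 is an activator of interferon-γ target genes and of antigen presentation, and IRF2 is best known as its antagonist at the same sites. IRF3, IRF7 and IRF5 lie downstream of nucleic acid sensors and, once phosphorylated, switch on interferon genes, while IRF9 is the DNA-binding part of the complex ISGF3, which carries the type I interferon signal to DNA. IRF4 and IRF8 are close relatives restricted mainly to blood cells, bind weakly alone and act with partners such as BATF and JUN, and IRF4 is required for the effector programme of regulatory T cells.

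Values are normalized counts, in which the size factor of each library has been divided out. The total count per library was 7551177 to 7969853 in mTO-iTreg cells, 2078223 to 9944952 in TGFβ-iTreg cells and 2267922 to 5328169 in day 0 cells, and a single count was worth 0.494 to 2.69 normalized counts. The reporter transcript eGFP averaged 343 ± 105 in mTO-iTreg cells, 652 ± 56.9 in TGFβ-iTreg cells and 54.6 ± 30.3 in day 0 cells (SD, n = 3 each), lowest in the cells sorted as eGFP-negative. Foxp3 averaged 62.6 ± 22.7 in mTO-iTreg, 16.5 ± 2.78 in TGFβ-iTreg and 3.63 ± 4.58 in day 0 cells. Summed T cell markers (9 of 12 listed genes are in the table) were 22377 to 27163 in mTO-iTreg, 21563 to 24737 in TGFβ-iTreg and 32270 to 34603 in day 0 cells, and 6 of the 9 fell in each induced group against day 0, while Cd4 and Cd2 rose in mTO-iTreg cells. Of all tested genes, 14.5% fell in mTO-iTreg and 8.8% in TGFβ-iTreg against day 0 cells. Summed dendritic cell markers (12 of 13 in the table) reached 2342 to 3430 in mTO-iTreg cells, 858 to 1146 in TGFβ-iTreg cells and 1323 to 8115 in day 0 cells. The highest of these sums belonged to day 0 replicate 3, which stood apart from its group also in macrophage markers (8 of 14 in the table), at 363, against 125 and 126 in the other day 0 libraries. Of the dendritic cell list, Itgax, Clec9a and Flt3 were at 0 in all 3 mTO-iTreg libraries, Clec9a and Siglech in all 3 TGFβ-iTreg libraries, and Zbtb46 and Batf3 in all 3 day 0 libraries. Xist, the RNA that coats the inactive X chromosome, read 314, 398 and 401 in mTO-iTreg cells, 0, 2.71 and 70.6 in TGFβ-iTreg cells, and 3.51, 0 and 212 in day 0 cells. The library codes of the mTO-iTreg cells are also of another form than those of the other 6 libraries, so whatever that form marks cannot be told apart from the group. Every mTO-iTreg library lay above every other library in Xist. Foxp3 lies on the X chromosome, all libraries are labelled hemizygous for its allele, and the labels give no sex. Sex may therefore differ together with the group, and its part cannot be told apart. The parts of the markers above, of Xist and of depth in the differences below were not tested.

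The promoters of the members that hold either of the motifs described below are shown here. They include the 2 genes called higher in both induced groups, Irf1 and Irf8, and also Irf2, which was called in no comparison. Windows of 300 bases, 250 before and 50 after the start site, were read from RefSeq on GRCm38.p6 for all 8 members, which have 11 such windows. The motifs searched on both strands were the core of the interferon-stimulated response element, that is GAAA, any 2 bases and GAAA again, and the STAT site TTCNNNGAA. The first was present in 3.44% and the second in 8.3% of 32851 RefSeq promoter windows. Among the members, the STAT site was found in 1 window each of Irf1, Irf2 and Irf8 and the response element in that of Irf2, and no other member window held either. The windows lie on the plus strand at chr8:120736108-120736407 for Irf8, chr11:53769764-53770063 for Irf1 and chr8:46739495-46739794 for Irf2, and capitals mark the motifs.
Irf8 promoter: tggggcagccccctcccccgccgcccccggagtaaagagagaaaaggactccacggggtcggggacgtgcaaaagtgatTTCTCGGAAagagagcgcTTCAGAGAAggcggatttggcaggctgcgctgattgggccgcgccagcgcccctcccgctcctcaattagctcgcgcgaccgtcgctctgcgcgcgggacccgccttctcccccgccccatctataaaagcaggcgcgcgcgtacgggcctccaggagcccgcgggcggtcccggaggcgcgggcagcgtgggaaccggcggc
Irf1 promoter: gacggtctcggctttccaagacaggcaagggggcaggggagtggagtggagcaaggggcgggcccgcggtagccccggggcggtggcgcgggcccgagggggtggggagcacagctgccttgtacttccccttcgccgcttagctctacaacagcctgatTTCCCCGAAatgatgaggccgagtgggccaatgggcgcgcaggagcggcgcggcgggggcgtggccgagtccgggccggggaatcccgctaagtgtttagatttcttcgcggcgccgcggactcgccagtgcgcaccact
Irf2 promoter: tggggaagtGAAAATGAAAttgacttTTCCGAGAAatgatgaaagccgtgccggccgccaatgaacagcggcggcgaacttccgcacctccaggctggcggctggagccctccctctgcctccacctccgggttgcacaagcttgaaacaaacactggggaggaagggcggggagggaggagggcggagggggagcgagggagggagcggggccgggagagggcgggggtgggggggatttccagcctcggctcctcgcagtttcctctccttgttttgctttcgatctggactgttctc
In Irf8 the matches TTCTCGGAA and TTCAGAGAA begin at -171 and -153 from the start site. In Irf1 the match TTCCCCGAA begins at -90. In Irf2 the response element GAAAATGAAA begins at -241 and the STAT site TTCCGAGAA at -224. A match says only that these letters occur in the window.

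Against day 0, Irf8 rose the most of the family in both induced groups, and Irf1 rose modestly in both. Irf4 and Irf5 rose in TGFβ-iTreg cells, and Irf7 fell there. Between the induced groups, Irf7 and Irf8 were higher and Irf4 was lower in mTO-iTreg cells. Irf2, Irf3 and Irf9 passed the test in none of the 3 comparisons. Calls rest on limma's moderated test of log2(normalized count + 1) with Benjamini-Hochberg adjustment over all tested genes and a threshold of 0.05, and every fold change on the log2 scale refers to that quantity. The labels do not say if replicates are separate mice or separate wells, so the spread behind each p-value may be technical.

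In mTO-iTreg against day 0 cells, 2 of the 8 members rose and 0 fell, where 33.9% of all tested genes were called, 19.4% upward. In TGFβ-iTreg against day 0 cells, 4 rose and 1 fell, where 18.6% were called, 9.78% upward and 8.8% downward. In mTO-iTreg against TGFβ-iTreg cells, 2 were higher and 1 was lower, where 26.6% were called. The 3 libraries of one group lay wholly outside those of the other for 4, 6 and 5 members in these comparisons, against 46.2%, 35.9% and 44.6% of all tested genes. The median log2 change of the members was 0.58, 0.27 and 0.33, beside 0.09, -0.02 and 0.13 over all tested genes. The first 2 comparisons share the day 0 libraries.

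**Figure D1:**
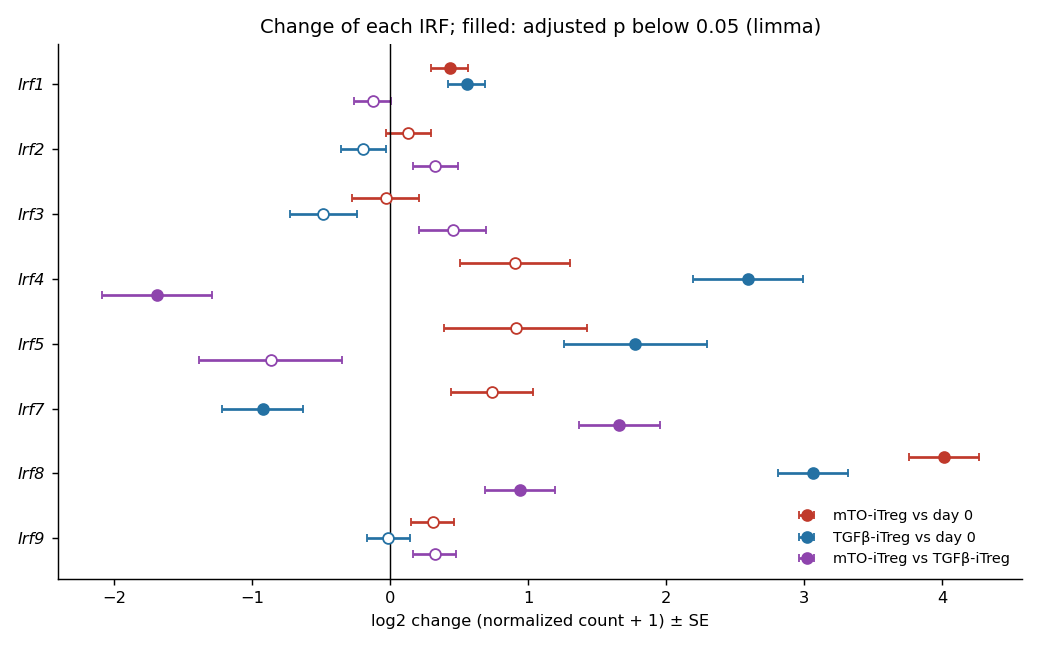
The log2 change of each IRF (horizontal axis, log2 of normalized count + 1, with its standard error) is plotted for the 3 comparisons, and filled points passed an adjusted p of 0.05 in limma. Irf8 stands at 4.01 and 3.07 against day 0, Irf4 and Irf7 take opposite signs between the induced groups (-1.69 and 1.66), and Irf2, Irf3 and Irf9 have open points in all 3 comparisons.

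Irf8 (chromosome 8, 120736358 to 120756694, plus strand, GRCm38), a factor known for directing dendritic cell and monocyte development that activated T cells also make, read 1290, 2395 and 1309 normalized counts in mTO-iTreg cells. It read 885, 959 and 667 in TGFβ-iTreg cells and 98.2, 75.3 and 127 in day 0 cells. The groups did not overlap, with every mTO-iTreg library highest, and mTO-iTreg replicate 2 stood well above the other libraries of its group. Irf8 rose 16.6-fold in mTO-iTreg cells (log2 change 4.01 ± 0.25 SE, limma adjusted p = 1.6e-07) and 8.37-fold in TGFβ-iTreg cells (3.07 ± 0.25, limma adjusted p = 7.9e-06), both against day 0. Both calls held under all 23 alternative analyses. GENCODE also places a protein-coding model, Gm20388, on the same strand over the whole 20337 bases of Irf8, 3′ end included, and how reads there were assigned is not given in the sources used here. Between the induced groups it was 1.99-fold higher in mTO-iTreg cells (0.94 ± 0.25, limma adjusted p = 0.014). That call was lost without mTO-iTreg replicate 2, without TGFβ-iTreg replicate 3 and without a variance trend, with adjusted p between 0.00686 and 0.07 over the 23 alternatives.

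Because Irf8 is also a gene of dendritic cells and B cells, the marker levels of those cells stand beside it. Of 5 dendritic cell markers tested, 1 rose and 2 fell in mTO-iTreg against day 0 cells, 0 rose and 3 fell in TGFβ-iTreg against day 0 cells, and 2 were higher and 0 lower in mTO-iTreg than in TGFβ-iTreg cells, all of them genes of class II antigen presentation. Of all tested genes, 33.9%, 18.6% and 26.6% were called in these comparisons. H2-Eb1 read 2331, 1410 and 1817 in mTO-iTreg cells, against 41.8, 140 and 53.4 in TGFβ-iTreg cells and 344, 175 and 1985 in day 0 cells. H2-Aa averaged 92.9 ± 84.6 in mTO-iTreg, 79.6 ± 42.3 in TGFβ-iTreg and 879 ± 966 in day 0 cells (SD, n = 3 each). H2-Ab1 read 229, 208 and 313 in mTO-iTreg, 88.5, 76.6 and 33.1 in TGFβ-iTreg and 588, 293 and 2463 in day 0 cells. These levels did not share 1 order of groups. In day 0 replicate 3, where the dendritic cell sum was highest, Irf8 was at 127, its highest value among the day 0 libraries. Summed B cell markers (9 of 11 in the table) came to 95.7 to 183 in mTO-iTreg cells, 166 to 273 in TGFβ-iTreg cells and 69.9 to 103 in day 0 cells. The part of these cells in the level of Irf8 was not tested. Without day 0 replicate 3, the log2 change of Irf8 against day 0 was 4.20 in mTO-iTreg and 3.25 in TGFβ-iTreg cells. In bulk samples, more cells with a transcript and more of it per cell cannot be told apart.

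Irf4 (chromosome 13, 30749226 to 30766976, plus strand), which is induced by the T cell receptor and needed for effector regulatory T cells, followed another order. It read 92.1, 125 and 97.0 in mTO-iTreg cells, 224, 333 and 510 in TGFβ-iTreg cells, and 33.3, 45.7 and 108 in day 0 cells. All TGFβ-iTreg libraries lay above all others, while the mTO-iTreg and day 0 libraries overlapped through day 0 replicate 3. Irf4 rose 5.72-fold in TGFβ-iTreg against day 0 cells (2.59 ± 0.40, limma adjusted p = 0.00063) and was 3.40-fold lower in mTO-iTreg than in TGFβ-iTreg cells (-1.69 ± 0.40, limma adjusted p = 0.0070). Both calls held under all 23 alternatives. In mTO-iTreg against day 0 cells the ratio of means was 1.68 and the change did not pass (0.91 ± 0.40, limma adjusted p = 0.097). Without day 0 replicate 3 it did, at a log2 change of 1.39 and an adjusted p of 0.010, and it passed with a replicate block as well (adjusted p = 0.0492). Over the 23 alternatives its adjusted p ran from 0.01 to 0.374.

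The balance of the pair was lowest in mTO-iTreg cells. The log2 ratio of Irf4 to Irf8 was -3.93 ± 0.28 in mTO-iTreg cells, -1.30 ± 0.82 in TGFβ-iTreg cells and -0.82 ± 0.66 in day 0 cells (SD, n = 3 each). Every mTO-iTreg library lay below every other, and the TGFβ-iTreg and day 0 libraries overlapped. This ratio restates the changes of its genes and was not tested apart from them.

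**Figure D2:**
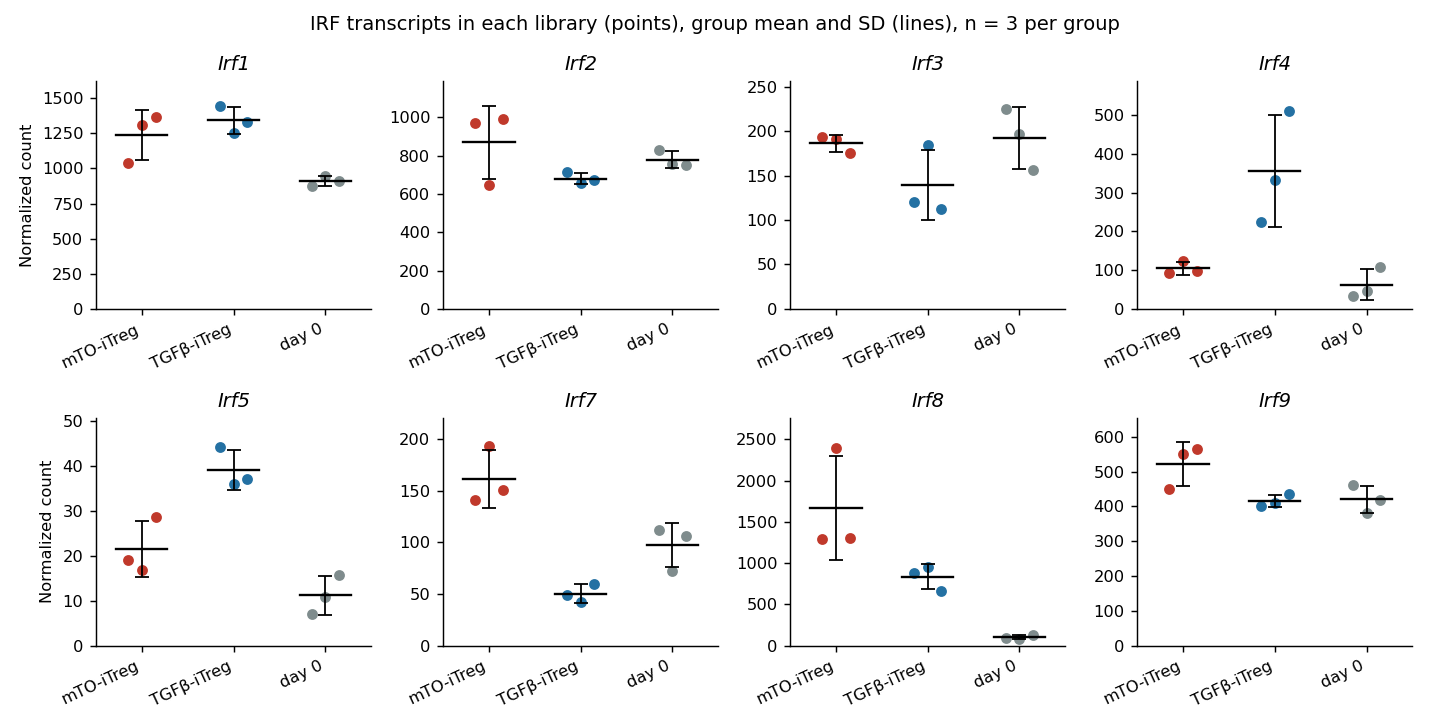
Normalized counts of the 8 IRF transcripts (vertical axes, each starting at 0) are shown as 1 point per library, with lines for the mean and SD of mTO-iTreg, TGFβ-iTreg and day 0 cells (n = 3 each). Irf8 is at 75.3 to 127 in day 0 cells and at 667 or more in every induced library, whereas Irf4 and Irf5 are highest in TGFβ-iTreg cells and Irf7 is lowest there.

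Irf1 (chromosome 11, 53770014 to 53778374, plus strand) was among the most abundantly counted members in every group. It read 1039, 1309 and 1366 in mTO-iTreg cells, 1446, 1254 and 1329 in TGFβ-iTreg cells and 877, 946 and 913 in day 0 cells. Every induced library was above every day 0 library, and the induced groups overlapped. It rose 1.36-fold in mTO-iTreg cells (0.43 ± 0.13, limma adjusted p = 0.023) and 1.47-fold in TGFβ-iTreg cells (0.56 ± 0.13, limma adjusted p = 0.011) against day 0. The difference between the induced groups did not pass (-0.13 ± 0.13, limma adjusted p = 0.52). The call in mTO-iTreg cells was lost in 6 of 23 alternatives, among them leaving out mTO-iTreg replicate 2 or 3 or day 0 replicate 1 (adjusted p from 0.00211 to 0.101). The call in TGFβ-iTreg cells was lost in 2, without a variance trend and without the shallowest day 0 and TGFβ-iTreg libraries (0.00111 to 0.0792).

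Irf2 (chromosome 8, 46739732 to 46847458, plus strand) read 968, 648 and 990 in mTO-iTreg cells, 713, 656 and 671 in TGFβ-iTreg cells and 830, 758 and 749 in day 0 cells. The mTO-iTreg libraries spanned the other groups because replicate 2 was low, and every TGFβ-iTreg library was below every day 0 library by a small margin. Its log2 changes of 0.13 ± 0.16, -0.19 ± 0.16 and 0.33 ± 0.16 did not pass (limma adjusted p = 0.57 and 0.45 against day 0 for mTO-iTreg and TGFβ-iTreg cells, and 0.16 between them). Without mTO-iTreg replicate 2, the difference between the induced groups passed (adjusted p = 0.0167). The log2 ratio of Irf1 to its antagonist Irf2 was 0.53 ± 0.46 in mTO-iTreg cells, 0.98 ± 0.04 in TGFβ-iTreg cells and 0.23 ± 0.13 in day 0 cells (SD, n = 3 each), with mTO-iTreg libraries spread across the range of the rest.

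Of the sensor-activated members, Irf7 (chromosome 7, 141262706 to 141266481, minus strand), itself an interferon-induced gene that amplifies type I interferon production, lay on either side of its day 0 level in the induced groups. It read 141, 193 and 151 in mTO-iTreg cells, 49.2, 42.0 and 59.8 in TGFβ-iTreg cells, and 112, 72.6 and 107 in day 0 cells. No groups overlapped, with mTO-iTreg libraries above day 0 and TGFβ-iTreg libraries below. It was 3.21-fold higher in mTO-iTreg than in TGFβ-iTreg cells (1.66 ± 0.29, limma adjusted p = 0.0010), a call that held in all 23 alternatives (0.000495 to 0.00691). The comparisons with day 0 gave calls that changed with the settings. Irf7 fell 1.93-fold in TGFβ-iTreg cells (-0.92 ± 0.29, limma adjusted p = 0.043), a call lost in 16 of 23 alternatives (0.025 to 0.13), among them leaving out any mTO-iTreg or TGFβ-iTreg library, day 0 replicate 1 or day 0 replicate 3, and the replicate block (0.0617). The 1.66-fold ratio of mTO-iTreg to day 0 cells did not pass (0.74 ± 0.29, limma adjusted p = 0.068; 0.0244 to 0.203 over the alternatives), and passed with equal library totals and with scaling that leaves out mitochondrial genes and Rn45s. The 3′ end of Irf7 overlaps Phrf1 on the opposite strand by 45 bases, and Phrf1 passed in none of the 3 comparisons (151 ± 24.5 in mTO-iTreg, 108 ± 30.1 in TGFβ-iTreg and 177 ± 28.9 in day 0 cells).

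Irf3 (chromosome 7, 44997648 to 45002848, plus strand), which is made constitutively in most cells, read 193, 191 and 175 in mTO-iTreg cells, 121, 184 and 112 in TGFβ-iTreg cells and 225, 196 and 156 in day 0 cells. The groups overlapped in all 3 comparisons. Its log2 changes against day 0 were -0.03 ± 0.24 in mTO-iTreg and -0.48 ± 0.24 in TGFβ-iTreg cells, and the difference between them was 0.46 ± 0.24 (limma adjusted p = 0.94, 0.19 and 0.18).

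Irf5 (chromosome 6, 29526625 to 29541871, plus strand), best known for inflammatory cytokine genes in macrophages, was the least counted member. It read 19.1, 16.7 and 28.6 in mTO-iTreg cells, 44.3, 35.9 and 37.1 in TGFβ-iTreg cells and 7.02, 10.8 and 15.8 in day 0 cells, from 98 counts in mTO-iTreg, 146 in TGFβ-iTreg and 23 in day 0 cells. The 3 groups did not overlap. It rose 3.49-fold in TGFβ-iTreg against day 0 cells (1.78 ± 0.52, limma adjusted p = 0.030), and this call was lost in 8 of 23 alternatives (0.0137 to 0.113), among them leaving out any TGFβ-iTreg library or day 0 replicate 1 or 2. The 1.92-fold ratio of mTO-iTreg to day 0 cells (0.91 ± 0.52, limma adjusted p = 0.19) and the difference between the induced groups (-0.86 ± 0.52, limma adjusted p = 0.24) did not pass. Macrophage markers summed to 24.2 to 63.1 in mTO-iTreg cells, 9.39 to 51.7 in TGFβ-iTreg cells and 125 to 363 in day 0 cells. B cell markers summed to 95.7 to 183 in mTO-iTreg cells, 166 to 273 in TGFβ-iTreg cells and 69.9 to 103 in day 0 cells. The part of such cells in the levels of Irf4 and Irf5 was not tested. The 3′ end of Irf5 overlaps Tnpo3 on the opposite strand by 1045 bases, the handling of strand is not given in the sources used here, and Tnpo3 passed in none of the comparisons (110 ± 32.1 in mTO-iTreg, 84.2 ± 10.9 in TGFβ-iTreg and 110 ± 3.48 in day 0 cells).

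Irf9 (chromosome 14, 55603571 to 55610030, plus strand), the DNA-binding subunit of ISGF3, read 450 to 567 in mTO-iTreg cells, 401 to 435 in TGFβ-iTreg cells and 382 to 461 in day 0 cells. The mTO-iTreg libraries lay above the TGFβ-iTreg libraries and overlapped day 0. Its log2 changes were 0.31 ± 0.16 and -0.01 ± 0.16 against day 0 for mTO-iTreg and TGFβ-iTreg cells and 0.32 ± 0.16 between them (limma adjusted p = 0.14, 0.96 and 0.14). With equal library totals the first passed (adjusted p = 0.0204). Irf9 shares 123 bases with Rnf31 on the same strand, and Rnf31 was higher in mTO-iTreg cells (217 ± 24.2, against 124 ± 27.6 in TGFβ-iTreg and 112 ± 9.80 in day 0 cells). The log2 ratio of Irf7 to Irf9 was -1.69 ± 0.20 in mTO-iTreg, -3.03 ± 0.21 in TGFβ-iTreg and -2.12 ± 0.22 in day 0 cells (SD, n = 3 each).

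The summed counts of the family and their make-up differed between the groups. The 8 members summed to 4191, 5427 and 4684 normalized counts in mTO-iTreg cells, 3884, 3875 and 3822 in TGFβ-iTreg cells and 2644, 2486 and 2592 in day 0 cells. The groups did not overlap, and in day 0 cells the sum was mostly Irf1 and Irf2. The modified CEL-Seq method used here reads a transcript at its 3′ end, so counts were not divided by gene length and shares are shares of counts. Irf8 made up 34.3% ± 8.64 of the sum in mTO-iTreg cells, 21.7% ± 3.77 in TGFβ-iTreg cells and 3.88% ± 0.939 in day 0 cells. Irf2 made up 18.7% ± 5.96 in mTO-iTreg, 17.6% ± 0.715 in TGFβ-iTreg and 30.3% ± 1.26 in day 0 cells. Irf1 made up 26.0% ± 2.74 in mTO-iTreg, 34.8% ± 2.44 in TGFβ-iTreg and 35.5% ± 2.45 in day 0 cells. The share of Irf4 was 2.19% ± 0.114 in mTO-iTreg cells, 9.24% ± 3.84 in TGFβ-iTreg cells and 2.42% ± 1.53 in day 0 cells.

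**Figure D3:**
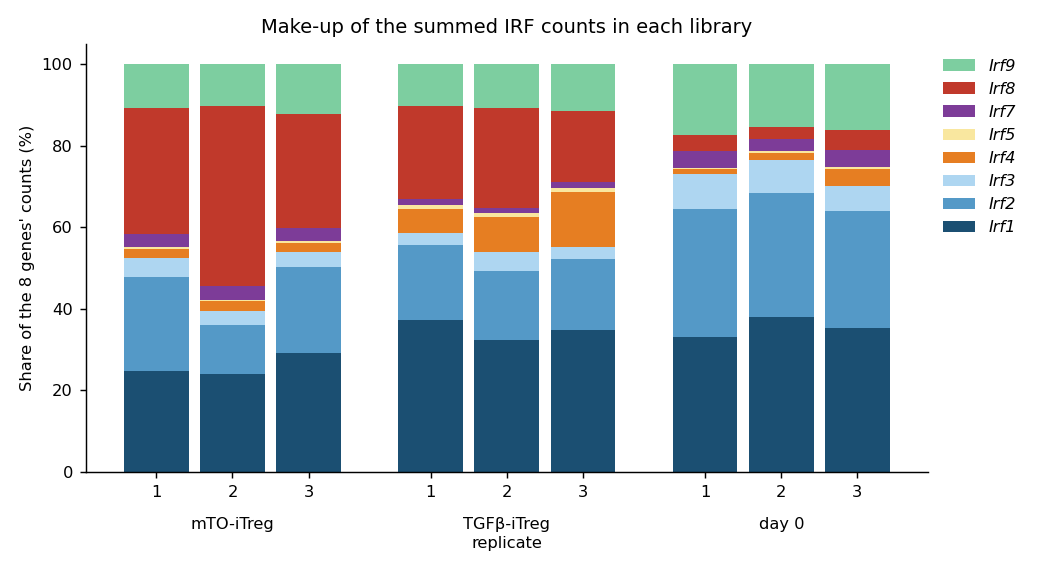
Each bar is 1 library and splits the summed normalized counts of the 8 IRF genes into their shares (vertical axis, %), with the 3 mTO-iTreg, 3 TGFβ-iTreg and 3 day 0 libraries in turn. The Irf8 segment averages 34.3%, 21.7% and 3.88% of the bar in these groups, and the Irf4 segment is widest in TGFβ-iTreg cells at 9.24%.

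For each member, the 2 genes whose log2 values over the 9 libraries had the smallest root-mean-square difference from its own were taken from 8378 candidates with a mean of at least 20. Irf8 was nearest to Tnfrsf4, the costimulatory receptor OX40 (difference 0.30), and to the cell division gene Top2a (0.49). Tnfrsf4 read 878 ± 131 in mTO-iTreg, 313 ± 28.1 in TGFβ-iTreg and 43.9 ± 13.2 in day 0 cells. Irf4 was nearest to the nucleoside transporter gene Slc29a1 (0.30) and the actin-capping gene Capg (0.34), both of which were highest in TGFβ-iTreg cells (1055 ± 329 for Slc29a1, against 332 ± 83.6 in mTO-iTreg and 174 ± 38.2 in day 0 cells). Irf7 was nearest to Zrsr1 (0.12), at 172 ± 3.89 in mTO-iTreg, 50.0 ± 10.6 in TGFβ-iTreg and 98.3 ± 22.8 in day 0 cells, and to Tspyl2 (0.22). Irf5 was nearest to Pla2g16 and Apobec3 (0.25 each), Irf1 to the lactate dehydrogenase gene Ldha and to Atp6v1f (0.067 each), Irf2 to Fam98b (0.094) and Rdx (0.11), Irf3 to Kidins220 (0.083) and Rfx5 (0.13), and Irf9 to Ddx24 (0.10) and Atp9b (0.11). The measure is small by construction for members that varied little across libraries. Among the members themselves, which were not candidates, the closest was Irf2 and Irf9 (0.233).

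Upstream of the IRFs, the receptor chains Ifnar2 and Ifngr1 rose in both induced groups against day 0, and both were higher in mTO-iTreg than in TGFβ-iTreg cells, as was Ifngr2. Of 10 receptor, kinase and STAT genes, 6 rose and 1 fell in mTO-iTreg against day 0 cells, 4 rose and 1 fell in TGFβ-iTreg against day 0 cells, and 6 were higher and 1 was lower in mTO-iTreg than in TGFβ-iTreg cells. Their median log2 change was 1.26, -0.03 and 0.66, beside 0.09, -0.02 and 0.13 over all tested genes, of which 33.9%, 18.6% and 26.6% were called. Ifngr1, the ligand-binding chain of the interferon-γ receptor, averaged 2874 ± 487 in mTO-iTreg, 1918 ± 523 in TGFβ-iTreg and 603 ± 111 in day 0 cells (log2 change 2.25 and 1.64 against day 0, limma adjusted p = 3.2e-06 and 0.00013). The chains Ifnar2 and Ifngr2 were higher in mTO-iTreg than in TGFβ-iTreg cells, 2.83-fold and 4.26-fold (limma adjusted p = 6.2e-05 and 4.1e-05). Stat2, a subunit of ISGF3, averaged 329 ± 110 in mTO-iTreg, 112 ± 12.6 in TGFβ-iTreg and 128 ± 30.8 in day 0 cells, higher in mTO-iTreg than in both (1.34 against day 0 and 1.51 against TGFβ-iTreg, limma adjusted p = 0.0020 and 0.0013).

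Among 18 tested genes (of 23 listed) that activate IRF3 and IRF7, calls ran in both directions: 4 rose and 5 fell in mTO-iTreg against day 0 cells, 2 rose and 4 fell in TGFβ-iTreg against day 0 cells, and 3 were higher and 2 lower in mTO-iTreg than in TGFβ-iTreg cells. Their median log2 change was -0.43, -0.47 and 0.29, beside 0.09, -0.02 and 0.13 over all tested genes. Of all tested genes, 33.9%, 18.6% and 26.6% were called in these comparisons. The 6 called in TGFβ-iTreg against day 0 cells came to 3 without TGFβ-iTreg replicate 2. Unc93b1, the chaperone of endosomal Toll-like receptors, rose in both induced groups (437 ± 77.3 in mTO-iTreg and 200 ± 29.2 in TGFβ-iTreg, against 57.0 ± 51.5 in day 0 cells). Mb21d1, the DNA sensor cGAS, and Dhx58, an RNA sensor related to RIG-I, were higher in mTO-iTreg than in TGFβ-iTreg cells, by 2.37 and 2.73 on the log2 scale (limma adjusted p = 0.00082 and 0.00070). The 2 genes called lower there were Tlr7, with the largest change of the list (-2.81), and Tmem173 (-1.16). The kinase gene Ikbke, whose product phosphorylates IRF3 and IRF7, fell in both induced groups (263 ± 13.5 in mTO-iTreg and 190 ± 7.14 in TGFβ-iTreg, against 387 ± 67.8 in day 0 cells).

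Downstream, among genes known as targets of ISGF3, more were called lower than higher in TGFβ-iTreg cells against either other group. Of 31 tested (of 33 listed), 15 were higher and 2 lower in mTO-iTreg than in TGFβ-iTreg cells, 3 rose and 12 fell in TGFβ-iTreg against day 0 cells, and 5 rose and 5 fell in mTO-iTreg against day 0 cells. Their median log2 change was 0.94, -1.07 and 0.38 in these comparisons, beside 0.13, -0.02 and 0.09 over all tested genes. Of all tested genes, 26.6%, 18.6% and 33.9% were called in the same comparisons. Rsad2, which encodes the antiviral enzyme viperin, averaged 53.1 ± 12.4 in mTO-iTreg and 29.2 ± 11.2 in day 0 cells, and all 3 TGFβ-iTreg libraries together held 3 counts (limma adjusted p = 9.4e-05 for mTO-iTreg against TGFβ-iTreg and 0.00066 for TGFβ-iTreg against day 0). The same held for Oas2, a sensor of double-stranded RNA, at 16.6 ± 7.33 in mTO-iTreg and 26.2 ± 8.10 in day 0 cells, with 3 counts in TGFβ-iTreg cells (limma adjusted p = 0.0028 and 0.0014). Slfn5 fell in both induced groups, to 94.3 ± 20.7 in mTO-iTreg and 42.5 ± 25.5 in TGFβ-iTreg cells, against 331 ± 34.9 in day 0 cells. Irf7 belongs to this class of genes by its known regulation and showed the same order of groups as the list's medians. These counts depended on single libraries. The 17 genes called between the induced groups came to 11 without mTO-iTreg replicate 2 and 10 without mTO-iTreg replicate 3. The 15 of TGFβ-iTreg against day 0 cells came to 9 without TGFβ-iTreg replicate 1, 9 without TGFβ-iTreg replicate 2 and 8 without day 0 replicate 1. The 10 of mTO-iTreg against day 0 cells came to 4 without mTO-iTreg replicate 3, 6 without day 0 replicate 2 and 5 without day 0 replicate 3.

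Among targets of IRF1 and interferon-γ, more rose than fell against day 0 in both induced groups. Of 27 tested (of 29 listed), 11 rose and 3 fell in mTO-iTreg against day 0 cells, 11 rose and 1 fell in TGFβ-iTreg against day 0 cells, and 2 were higher and 9 lower in mTO-iTreg than in TGFβ-iTreg cells (median log2 change 0.52, 0.46 and 0.01). Over all tested genes the medians were 0.09, -0.02 and 0.13, and 33.9%, 18.6% and 26.6% were called. The 12 called in TGFβ-iTreg against day 0 cells came to 7 without TGFβ-iTreg replicate 1, and the 11 called between the induced groups came to 7 without TGFβ-iTreg replicate 3. The negative regulator Socs1 rose in both, to 2571 ± 516 in mTO-iTreg and 2467 ± 431 in TGFβ-iTreg cells, against 551 ± 103 in day 0 cells (2.21 and 2.16, limma adjusted p = 1.5e-06 and 8.6e-06). The guanylate-binding protein gene Gbp2 averaged 400 ± 47.5 in mTO-iTreg, 9379 ± 2184 in TGFβ-iTreg and 1084 ± 295 in day 0 cells, lower in mTO-iTreg than in either (-1.41 against day 0 and -4.53 against TGFβ-iTreg, limma adjusted p = 0.00012 and 1.4e-08). Gbp3 averaged 57.3 ± 24.7 in mTO-iTreg and 805 ± 198 in TGFβ-iTreg cells, and Gbp genes are similar enough in sequence that the split of reads between them is uncertain. Igtp, an interferon-γ induced GTPase gene, rose in both induced groups, to 2829 ± 283 in mTO-iTreg and 3932 ± 834 in TGFβ-iTreg cells, against 862 ± 107 in day 0 cells. Levels of Irf1, by contrast, did not pass the test between the induced groups.

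**Figure D4:**
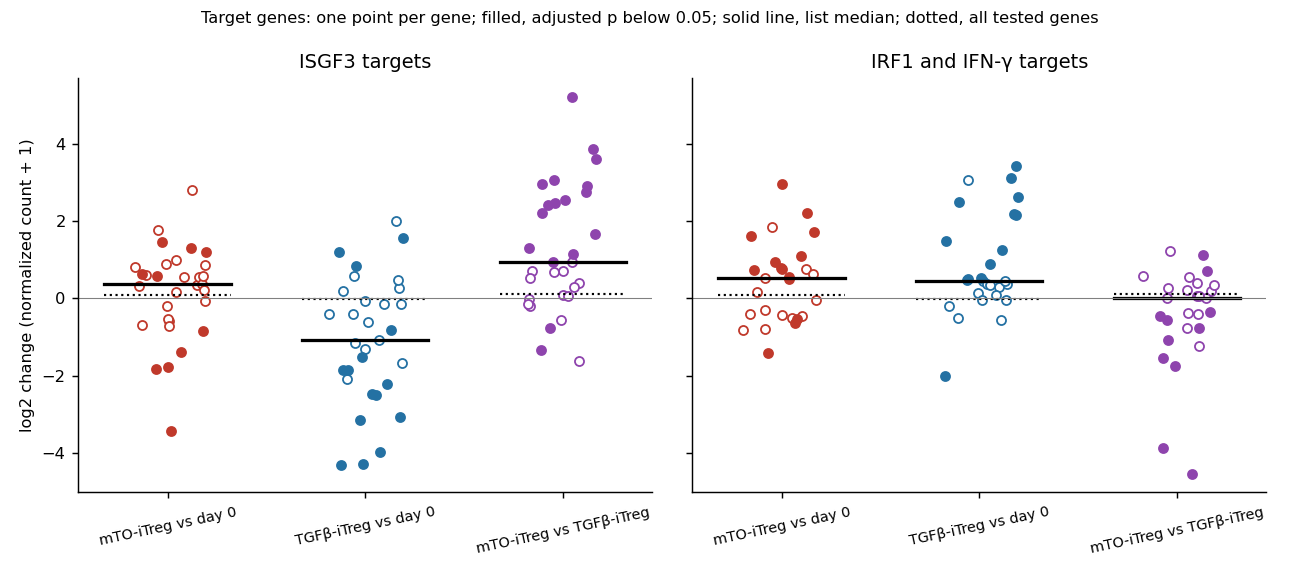
Each point is a listed target gene of ISGF3 (left, 31 genes) or of IRF1 and interferon-γ (right, 27 genes), placed by its log2 change (vertical axis) in the 3 comparisons, with filled points past an adjusted p of 0.05, a solid line at the list's median and a dotted line at that of all tested genes. ISGF3 targets have a median of -1.07 in TGFβ-iTreg against day 0 cells and 0.94 in mTO-iTreg against TGFβ-iTreg cells, while IRF1 targets have medians of 0.46 and 0.01 there.

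Among genes known as IRF4 targets in T cells, more rose than fell in both induced groups against day 0. Of 17 tested (of 20 listed), 10 rose and 1 fell in mTO-iTreg against day 0 cells, 9 rose and 1 fell in TGFβ-iTreg against day 0 cells, and 6 were higher and 2 lower in mTO-iTreg than in TGFβ-iTreg cells (median log2 change 1.27, 1.75 and 0.52). All tested genes had medians of 0.09, -0.02 and 0.13, with 33.9%, 18.6% and 26.6% called. Gzmb, encoding the protease granzyme B, averaged 5127 ± 788 in mTO-iTreg, 564 ± 255 in TGFβ-iTreg and 36.2 ± 20.1 in day 0 cells, an order opposite to that of Irf4 between the induced groups (3.30, limma adjusted p = 3.1e-05). Maf, a factor of interleukin-10 expression, followed the order of Irf4 there, at 18.6 ± 4.50 in mTO-iTreg, 255 ± 76.6 in TGFβ-iTreg and 69.6 ± 35.3 in day 0 cells (-3.69, limma adjusted p = 3.1e-05). Of 11 tested partners of IRF4 and IRF8 (of 14 listed), 2 rose and 5 fell in mTO-iTreg against day 0 cells, 0 rose and 4 fell in TGFβ-iTreg against day 0 cells, and 2 were higher and 2 lower in mTO-iTreg than in TGFβ-iTreg cells (median log2 change 0.06, -0.71 and 0.43). The medians and shares of all tested genes given for the IRF4 targets apply here too. The falls were of AP-1 genes and Ikzf1. Not all AP-1 genes fell, since Fosl2 was called higher in mTO-iTreg cells, by 2.12 against day 0 and 2.83 against TGFβ-iTreg cells. Fos averaged 196 ± 94.9 in mTO-iTreg and 196 ± 217 in TGFβ-iTreg cells, against 3503 ± 905 in day 0 cells. Jun averaged 1397 ± 335 in mTO-iTreg and 3439 ± 741 in TGFβ-iTreg cells, against 7496 ± 2244 in day 0 cells. Batf, the AP-1 partner best known for IRF4 in T cells, named here after its values were seen, did not pass (72.7 ± 16.9 in mTO-iTreg, 44.7 ± 8.48 in TGFβ-iTreg and 60.2 ± 34.9 in day 0 cells).

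Of 3 corepressor genes of IRF2, 1 was higher and 1 was lower in mTO-iTreg than in TGFβ-iTreg cells and than in day 0 cells, and 0 passed in TGFβ-iTreg against day 0 cells. Of all tested genes, 26.6%, 33.9% and 18.6% were called in these comparisons. Irf2bp2 averaged 864 ± 137 in mTO-iTreg, 531 ± 126 in TGFβ-iTreg and 564 ± 105 in day 0 cells, higher in mTO-iTreg than in both (log2 change 0.62 against day 0 and 0.72 against TGFβ-iTreg, limma adjusted p = 0.032 and 0.020). The related Irf2bpl averaged 210 ± 16.5 in mTO-iTreg, 535 ± 104 in TGFβ-iTreg and 423 ± 27.8 in day 0 cells, lower in mTO-iTreg than in both (2.01-fold against day 0 and 2.55-fold against TGFβ-iTreg, limma adjusted p = 0.00067 and 0.00012). Irf2bp1 passed in none of the 3 comparisons (195 ± 35.6 in mTO-iTreg, 148 ± 12.6 in TGFβ-iTreg and 158 ± 18.4 in day 0 cells).

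**Figure D5:**
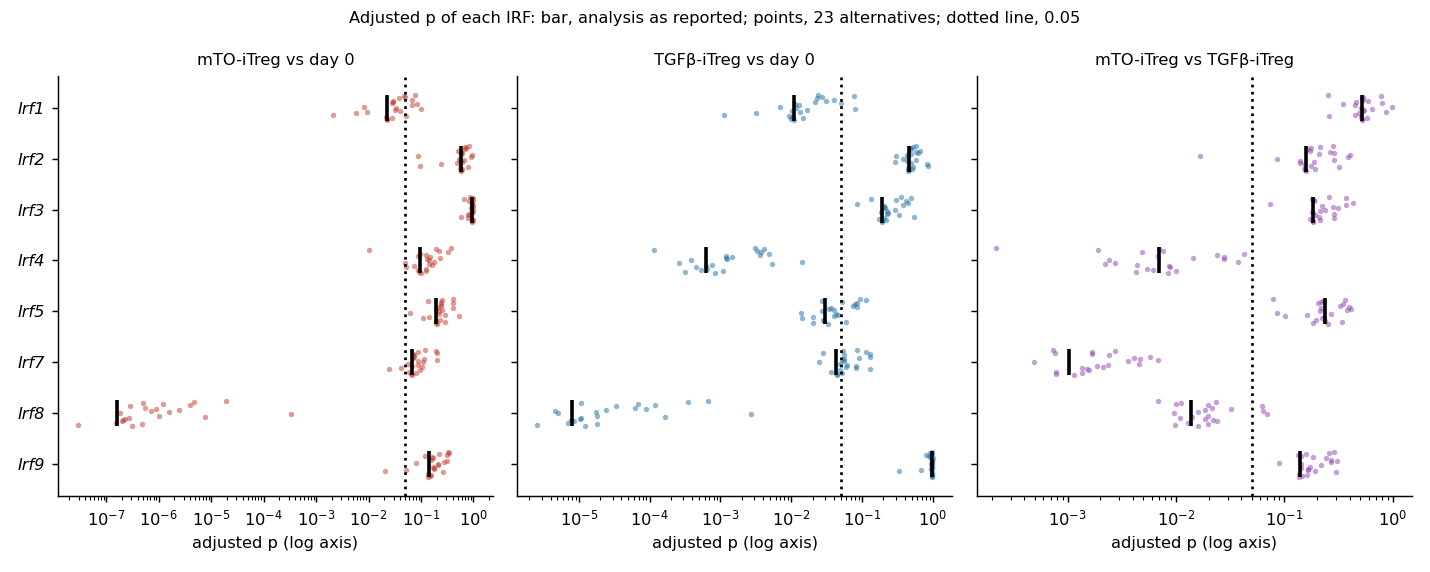
For each IRF and comparison, the adjusted p (horizontal log axis) of the reported analysis is a bar and those of 23 alternative analyses are points, with a dotted line at 0.05. All points of Irf8 against day 0, of Irf4 in TGFβ-iTreg against day 0, and of Irf4 and Irf7 in mTO-iTreg against TGFβ-iTreg cells lie left of the line, whereas those of Irf7 in TGFβ-iTreg against day 0 cells fall on both sides, from 0.025 to 0.13.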

How the data were processed

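Bulk RNA libraries of CD4+ T cells were prepared by a modified CEL-Seq method, per the labels' protocols. Per the submitters' processing notes, BWA and DESeq2 were used with mm10; the sources used here give neither their versions and roles nor how strand was treated. The authors deposited normalized counts with decimal commas, another unit than raw counts. Each library's smallest step between values was taken as 1 count, and dividing by it gave whole numbers within 0.1 throughout, whose sums are the depths given.

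Rows that reached 5 in 3 or more of 9 libraries were tested. Log2 of the deposited values plus 1 was fitted with 3 group means in limma 3.58.1 (R 4.3.3, eBayes with variance trend, 6 residual degrees of freedom), and p-values were adjusted by Benjamini-Hochberg over 10983 rows. The fit was tested on simulated data. Tables and figures used matplotlib 3.10.9, pandas 2.3.3 and numpy 2.4.6 under Python 3.11.15. Positions are from GENCODE M21 (GRCm38). Named genes are all members, up to 3 called genes per list and comparison with the largest change, the 2 nearest genes of each member, genes overlapping a member, and eGFP, Foxp3 and Xist. Members and lists were chosen with earlier results of these data known. Replicate numbers were not used as pairs, since the labels do not say what they mark. Libraries of the same number had correlations of -0.0505 to 0.0604 after removing group means, which does not settle whether they are pairs.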

Additional observations from a re-analysis of the deposited data

Results flagged for a closer look

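Irf7 was marked because its changes against day 0 ran in opposite directions in the induced groups. The rise in mTO-iTreg cells did not pass (limma adjusted p = 0.068), and the call of the fall in TGFβ-iTreg cells was lost in 16 of 23 alternatives. The difference between the changes is the comparison of the induced groups given above, and not a further test. That difference was 1.66 on the log2 scale, the change in mTO-iTreg cells (0.74) less that in TGFβ-iTreg cells (-0.92), with a limma adjusted p of 0.0010. It was the same sign in all 23 alternatives, at 1.51 to 1.79. Both changes are taken from the same day 0 libraries, which drop out of the difference. Irf8, Stat2 and Xist were also higher in mTO-iTreg than in TGFβ-iTreg cells, and the part of Xist, depth or library code in the result was not tested.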

How the results depend on the processing

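Of 552 changes of single members under 23 alternatives, 500 kept their direction and side of the threshold, 35 lost a call, 6 gained one and 11 changed sign, none of them called. In mTO-iTreg against day 0 cells, 2 members were called, against 1 with TMM factors, without a variance trend and with limma-voom on recovered counts, 4 with equal library totals, and 1 to 3 when each library was left out in turn. In TGFβ-iTreg against day 0 cells, 5 were called, against 3 without a filter, 3 with limma-voom, 2 without the shallowest day 0 and TGFβ-iTreg libraries (day 0 replicate 2 and TGFβ-iTreg replicate 1), and 3 to 4 when each library was left out; between the induced groups 3 were called, against 2 to 3. Over all genes in TGFβ-iTreg against day 0 cells, 2040 were called, against 1355 without a variance trend and 1142 without the shallowest libraries. The causes were not tested.

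Changes of sign were of values near 0. For Irf3 in mTO-iTreg against day 0 cells (-0.03), the value was 0.19 with equal totals, 0.091 with scaling without mitochondrial genes and Rn45s, 0.014 without mTO-iTreg replicate 3 and 0.0895 without day 0 replicate 1, and -0.17 at the lowest, without day 0 replicate 3. For Irf9 in TGFβ-iTreg against day 0 cells (-0.01), it was 0.0103 with TMM, 0.23 with equal totals, 0.12 without mitochondrial genes and Rn45s, 0.0124 with limma-voom, 0.0113 without TGFβ-iTreg replicate 1 and 0.0557 without day 0 replicate 1, and -0.081 at the lowest, without day 0 replicate 2. For Irf2 in TGFβ-iTreg against day 0 cells (-0.19), it was 0.054 with equal totals. With equal totals the median of all tested genes moved to 0.31 in mTO-iTreg and 0.23 in TGFβ-iTreg against day 0 cells (0.09 and -0.02 as reported), and 2739 genes rose and 1141 fell in mTO-iTreg and 1793 rose and 582 fell in TGFβ-iTreg cells, against 2126 and 1597, and 1074 and 966, as reported. Scaling without mitochondrial genes and Rn45s gave 1375 and 719 in TGFβ-iTreg against day 0 cells, and limma-voom 1622 and 1821 in mTO-iTreg against day 0 cells.

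With a replicate block, 3, 4 and 3 members and 3670, 1938 and 2838 genes were called in the 3 comparisons; Irf4 in mTO-iTreg against day 0 cells gained its call (adjusted p = 0.0492) and Irf7 in TGFβ-iTreg against day 0 cells lost it (adjusted p = 0.0617). The labels do not say what the numbers mark. Of the 9 libraries, 5 were closest to their own number, while correlations were near 0, so whether the numbers mark pairs was not settled. Tests of counts by edgeR and DESeq2, listed as alternatives, were not run. The limma-voom fit, chosen after the data were seen, took their place. A single count is worth up to 2.69 normalized counts, so Irf5 (23 counts in day 0 cells) is the least precise member.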

Other observations

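Summed epithelial markers, of which 9 of 16 are in the table, were 43.7 to 156 in mTO-iTreg, 140 to 152 in TGFβ-iTreg and 18.8 to 25.3 in day 0 cells. Of 3 tested, Epcam and Cdh1 rose in both induced groups against day 0, where 19.4% of all tested genes rose in mTO-iTreg and 9.78% in TGFβ-iTreg cells. Epcam, an epithelial adhesion gene, averaged 48.1 ± 36.0 in mTO-iTreg, 93.4 ± 19.2 in TGFβ-iTreg and 10.5 ± 7.29 in day 0 cells (SD, n = 3 each), with log2 changes of 2.02 and 3.20 against day 0 (limma adjusted p = 0.016 and 0.0021). Cldn4 and Lgr5 were at 0 in all 3 mTO-iTreg libraries, Krt18 in all 3 TGFβ-iTreg libraries, and Vil1, Elf3 and Muc13 in all 3 day 0 libraries.

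Summed CD8 and NK cell markers, of which 8 of 9 are in the table, were 1266 to 1966 in mTO-iTreg, 357 to 573 in TGFβ-iTreg and 387 to 885 in day 0 cells. Most of the mTO-iTreg sum was Eomes, at 685, 1243 and 495, and Nkg7, at 740, 599 and 672, while Klrb1c was at 0 in that group. Eomes, a T-box factor of cytotoxic lymphocytes, was highest in mTO-iTreg replicate 2, the library in which Irf8 was also highest, whereas Nkg7 was lowest there. Of 6 tested markers of this list, Nkg7 and Eomes were higher and Klrd1 was lower in mTO-iTreg cells than in either other group. Of all tested genes, 33.9% were called against day 0 and 26.6% against TGFβ-iTreg cells. The part of such cells in the level of Irf8 was not tested.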
